A study of Macaca mulatta with 2 samples.

Results

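The kynurenine pathway is the main route by which tryptophan is broken down, and it was described here through 8 of its enzymes on 2 arrays. The members were KYNU, KMO, TDO2, HAAO, AADAT, QPRT, AFMID and ACMSD, found by gene name among the gene probes of the array. They are 8 of the 21495 gene names on the array and had 12 probes in all. The members were chosen by their place in the pathway with earlier results of these arrays known, among them the low KYNU level of the pubertal culture relative to the infant one. That difference was part of the choice, so every value below is a description and carries no test.

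The arrays held RNA of primary Sertoli cell cultures from the testis of rhesus macaques, Macaca mulatta. Sertoli cells line the seminiferous tubule and nurse the germ cells. The pubertal culture came from males of 18 to 22 months that had received gonadotropin-releasing hormone through an indwelling catheter, in pulses lasting 2 min at 0.15 µg/min and given every 3 h, over 4 to 5 weeks to bring on puberty. The infant culture came from males younger than 3 months that are not described as having had this hormone. In vitro, both cultures had been exposed over 12 h to follicle-stimulating hormone at 5 ng/ml and testosterone at 100 nM, so no untreated culture enters the comparison. The number of animals behind each culture is not stated in the labels. There was 1 array per group and no replicate, and age, hormone course, animal and culture cannot be told apart.

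The array carried probes for human genes, to which monkey RNA had to bind, and all 8 member names also occur as macaque gene symbols in RefSeq. Well above background were 54.9% of gene spots for the pubertal culture and 54.8% for the infant one, and none was saturated. Signals are given in the intensity units of the scanner software with that software's own error after the ± sign. Log2 levels take the 75th percentile of the same array as 0, and differences are pubertal minus infant. Of 18 Sertoli cell markers, 17 were well above background on both arrays, GATA1 being the exception. The labels call both cultures Sertoli cells. However, markers of germ cells, Leydig cells, smooth muscle-like peritubular cells and macrophages were present too, and their values are given below. In RNA from a mixed culture, fewer cells of a type and less RNA per cell cannot be told apart.

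In the pathway a dioxygenase, TDO2 in liver or IDO1 in many other tissues, opens the indole ring of tryptophan to formylkynurenine, and the formamidase AFMID releases kynurenine. Kynurenine then has several fates. KMO hydroxylates it, the aminotransferase AADAT turns it into kynurenic acid, and the hydrolase KYNU cuts off the alanine side chain of kynurenine and of its hydroxylated form to give anthranilic acids. HAAO opens the ring of hydroxyanthranilic acid, from which quinolinic acid forms, ACMSD diverts the intermediate away from quinolinic acid, and QPRT converts quinolinic acid to a nicotinic acid nucleotide on the way to NAD. The pathway is best known from liver, kidney and activated immune cells.

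Some of the human member probes are printed here because the monkey transcript has to match them. Each is 60 bases long and written 5′ to 3′ in lower case throughout, with no part marked. The first pair are the KYNU probes, the third is the dimmer QPRT probe and the fourth is the only TDO2 probe.
KYNU, brighter probe: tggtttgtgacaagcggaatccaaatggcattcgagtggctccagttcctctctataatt
KYNU, dimmer probe: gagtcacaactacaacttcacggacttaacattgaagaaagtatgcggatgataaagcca
QPRT, dimmer probe: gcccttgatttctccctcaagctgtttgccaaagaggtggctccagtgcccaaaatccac
TDO2: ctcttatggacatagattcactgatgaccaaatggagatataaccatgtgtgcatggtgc

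The KYNU probes do not overlap and contain 45.0% and 40.0% G or C, against 53.3% in the QPRT probe and 41.7% in the TDO2 probe. None of the 12 member probes shared a run of 16 bases with any other of the 50238 gene probes on the array. The files list the genome position of each of these probes as unmapped, so no coordinates are given.

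KYNU, the kynureninase, had the widest gap of the members and was far lower in the pubertal culture. Its brighter probe, the first one printed, read 118.5 ± 12.7 on the pubertal array, against 5263 ± 526.3 on the infant array. The log2 level was -1.78 in the pubertal culture and 3.78 in the infant culture, a difference of -5.56 with a software error of 0.21, or 47.2-fold lower. The other probe read 536.7 ± 53.9 on the infant array and was not well above background on the pubertal array. Its pubertal value of 5.44 is a surrogate set by the scanner software. That probe gives a lower bound, at least 27.4-fold lower, set against the faintest signal called well above background on the pubertal array. So both KYNU probes were bright in the infant culture, and in the pubertal culture one was dim and the other at background.

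QPRT, the last enzyme before the NAD precursors, was also lower in the pubertal culture. Its brighter probe read 1133 ± 113.4 on the pubertal array, against 5267 ± 526.8 on the infant array. Its dimmer probe, printed above, read 104.9 ± 11.4 on the pubertal array, against 456.3 ± 45.8 on the infant array. The probe differences were -2.31 and -2.21, each with an error of 0.20 and 0.21 in that order, and the gene's mean of -2.26 corresponds to 4.78-fold lower. The gap between the QPRT probes was 0.10, smaller than the median SD of 0.21 between probes of one gene over the 4767 genes with several. The brighter QPRT probe holds the letters TCTGTAAAATGGG, which are known from the MIR family of short repeats. On either strand these letters occur in 8 of the 50238 gene probes, or 0.0159%. The other 3 of these probes that were well above background on both arrays differed by -0.38 to 0.44, 2 of them being dim probes of the same transcript. The dimmer QPRT probe does not hold the letters, and their part in the reading of the brighter probe was not tested.

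AADAT, which makes kynurenic acid, was the 1 member past 2-fold in the other direction. It read 556.7 ± 56.0 on the pubertal array, against 257.8 ± 26.2 on the infant array. Its difference of 1.02 with an error of 0.21, 2.03-fold higher, exceeded the 2-fold line by 0.02 and so cannot be separated from that line by the software's error. Its only spot lies in the first column of the grid. The call was lost with median scaling (0.86) and with normexp background correction (0.72).

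KMO, the hydroxylase at the branch beside KYNU, showed no difference beyond the error of the spot. One of its 3 probes was well above background, at 51.5 ± 7.50 in the pubertal culture and 46.4 ± 5.92 in the infant culture. The difference was 0.06 with an error of 0.28. The other KMO probes stood at 18.2 and 4.35 on the pubertal array, against 4.28 and 3.72 on the infant array. None of these 4 values was well above background, and all but the 18.2 are surrogates set by the scanner software.

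HAAO, the dioxygenase that follows KYNU, was dim in both cultures, at 69.3 ± 8.41 in the pubertal culture and 43.3 ± 5.88 in the infant culture. Its difference was 0.59 with an error of 0.26, or 1.51-fold higher, short of the 2-fold line. With normexp background correction it was 0.25.

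TDO2, AFMID and ACMSD were faint. TDO2 read 36.7 ± 5.79 on the pubertal array. Its reading of 8.0 ± 3.86 on the infant array was not well above background, which gives a lower bound of 1.86-fold higher. On the log2 scale this bound of 0.89 fell to 0.31 with normexp background correction. The pubertal reading was itself close to the background limit, since its log2 level of -3.47 lay 0.82 above the faintest level called well above background there, -4.29. AFMID read 10.1 in the pubertal culture and 3.89 in the infant culture. ACMSD stood at 5.03 and 4.88 in the same order of arrays, both surrogates set by the scanner software. Neither AFMID nor ACMSD was well above background in any reading, so no fold is given for them. A single human probe stood for each of these genes.

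**Figure D1:**
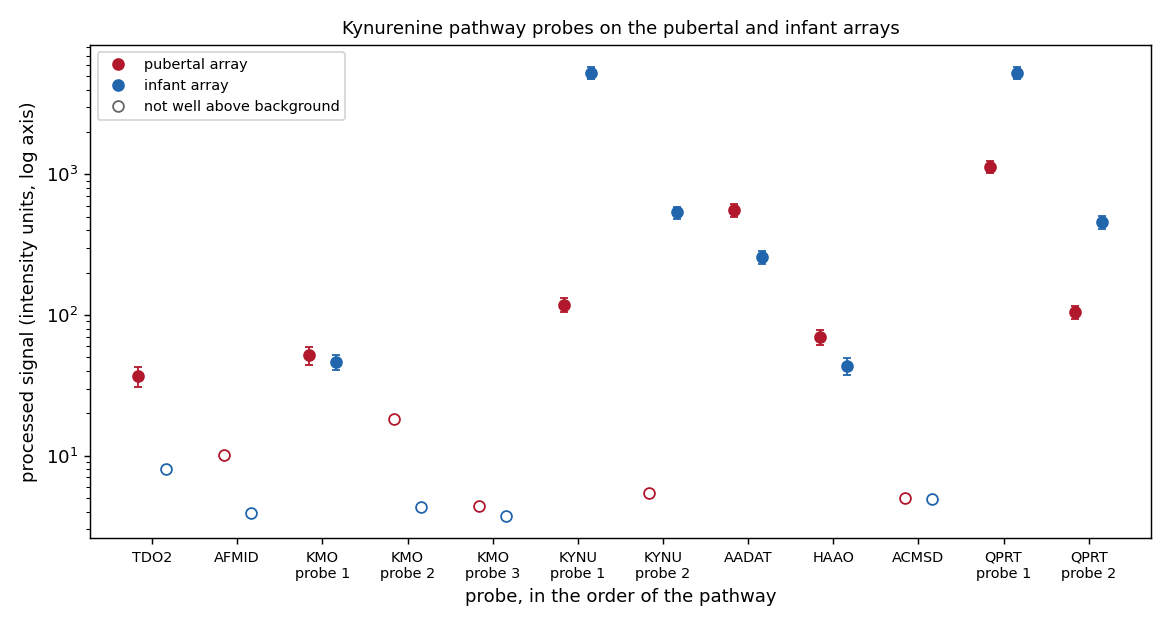
Processed signal of each of the 12 member probes, in intensity units on a log axis, with the pubertal array left of the infant array. Bars are the software's error for filled points, and open points are not well above background. KYNU and QPRT show the infant point far above the pubertal one with every probe, AADAT the reverse, and KMO probe 1 overlapping errors.

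Over the members, 5 of 8 were measured on both arrays, TDO2 on the pubertal array alone, AFMID and ACMSD on neither, and none on the infant array alone. Over all named genes, 66.3% were measured on both arrays, 4.21% on the pubertal array alone, 3.13% on the infant array alone and 26.4% on neither. Of the 5, KYNU and QPRT were at least 2-fold lower and AADAT at least 2-fold higher. Over all 14243 genes measured on both arrays, 6.32% were at least 2-fold lower and 7.32% at least 2-fold higher, 13.6% together, or 900 and 1042 genes. This split depends on the scaling. It was 1305 lower and 785 higher with median scaling, and 120 lower and 6563 higher when the arrays were scaled on spike-in RNA, which raised each difference by 1.00. The directions given here hold for the scale of the 75th percentile, and differences or list medians less than 1.00 below 0 turn positive on the spike-in scale. Because the low KYNU value was known when the members were chosen, nothing is read from the share of members past 2-fold. Of all genes, 54.2% had a negative difference. The median member difference was 0.06, which is that of KMO, beside -0.06 over all genes. That median hides members that lie far apart, from -5.56 to 1.02.

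KYNU had the 4th lowest difference of the 14243 genes, and QPRT ranked at place 76 from the low end. AADAT stood at place 1005 and HAAO at place 2126 from the high end, while 58.8% of genes had a difference at or below that of KMO. The genes just below KYNU in difference were ZCCHC11 (-8.44) and the collagenase MMP1 (-5.60), and those just above it were C9orf72 (-5.35) and the protease inhibitor SLPI (-4.95). ZCCHC11 and C9orf72 each had a spot in an area of the slide where neighbouring spots deviated together, whereas none of the 12 member spots lay in such an area. Around the member spots, the dim neighbours, 11 to 26 per spot, had median differences of -0.05 to 0.25, far smaller than the KYNU and QPRT differences. The highest of these medians, 0.25, was that around the AADAT spot. It was larger than the 0.02 by which AADAT exceeded the 2-fold line. With 1 value per array, a difference is the only pattern by which genes can be likened, so no other measure of likeness was used.

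**Figure D2:**
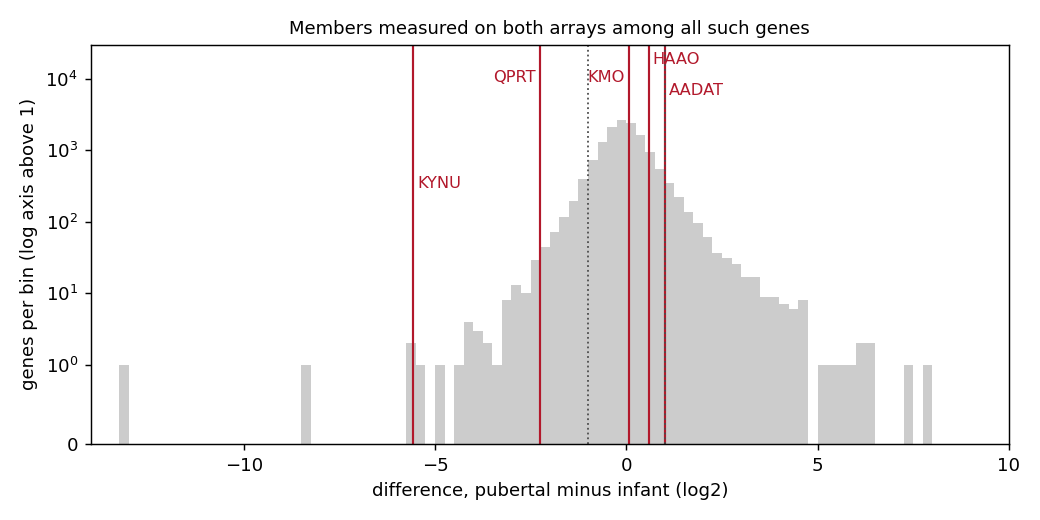
Number of genes per bin of 0.25 log2 units of the difference, pubertal minus infant, for the 14243 genes measured on both arrays, with the 5 measured members as lines and 2-fold as dotted lines. KYNU at -5.56 lies in the sparse low tail, QPRT at -2.26 in the lower flank, and KMO, HAAO and AADAT within the bulk.

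Other enzymes that use tryptophan or kynurenine passed 2-fold in 18.2% of those measured on both arrays, beside 13.6% of all genes. Of 18 such genes, 11 were measured on both arrays, 1 at least 2-fold lower and 1 at least 2-fold higher, and 10 of the 11 had a negative difference, beside 54.2% of all genes. Their median was -0.38, beside -0.06 over all genes. MAOB, a monoamine oxidase, read 336.5 in the pubertal culture and 785.5 in the infant culture, a difference of -1.31 with an error of 0.21. IL4I1, a secreted oxidase of aromatic amino acids, read 302.1 and 116.2 in the same order of arrays, a difference of 1.29 with an error of 0.21. By log2 level averaged over a gene's probes, MAOA (-0.29) and the tryptophanyl-tRNA synthetase WARS (-0.90) were the brightest of this list. IDO1, the entry enzyme outside the liver, listed as INDO, was not well above background on the pubertal array at 18.3 and barely so on the infant array at 27.4, at least 1.40-fold lower. The aminotransferases CCBL1 (-0.01) and CCBL2 (-0.38), which share the making of kynurenic acid with AADAT and were looked up after their values were seen, differed by less than 2-fold. GOT2, a further aminotransferase of this list, differed by -0.94, with -1.11 to -0.76 over its 3 probes. Its value too had been seen first. TPH1 and TPH2, the hydroxylases that lead to serotonin, and DDC, also looked up afterwards, were on neither array well above background.

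Among genes of NAD synthesis and salvage, to which QPRT delivers, 18.2% of those measured on both arrays passed 2-fold, beside 13.6% of all genes. Of 17 genes, 11 were measured on both arrays, with 1 at least 2-fold lower, 1 at least 2-fold higher, 9 negative and a median of -0.30. The summed level over each gene's brightest probe, in multiples of the array's 75th percentile, was 48.9 in the pubertal culture and 93.1 in the infant culture. That gap lay almost wholly in the nucleoside phosphorylase PNP, listed as NP, with log2 levels of 4.50 pubertal and 6.06 infant. PNP read 9233 in the pubertal culture and 25593 in the infant culture, a difference of -1.56 with an error of 0.20. NUDT12, a hydrolase of NADH, differed by 1.00 and lay on the 2-fold line. NMRK2, a nicotinamide riboside kinase listed as ITGB1BP3, read 13.9 in the pubertal culture, not well above background, and 163.9 in the infant culture, at least 8.37-fold lower. NADK2, listed as C5orf33, was also on the infant array alone, but its bound was 1.22-fold. NMRK1, listed as C9orf95, differed by -0.27. NAMPT, the rate-limiting enzyme of the nicotinamide salvage route, listed as PBEF1, differed by -0.32 over 3 probes and NADSYN1, which finishes the route from QPRT, by -0.11. Both were looked up after their values were seen.

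Carriers of tryptophan and kynurenine passed 2-fold in 37.5% of those measured on both arrays, beside 13.6% of all genes. Of 10 genes, 8 were measured on both arrays, 2 at least 2-fold lower and 1 at least 2-fold higher, with a median of -0.25. With normexp background correction 1 gene was at least 2-fold lower and none at least 2-fold higher. The aromatic amino acid carrier SLC16A10 read 203.0 in the pubertal culture and 547.9 in the infant culture, a difference of -1.52. SLC7A5, the large neutral amino acid exchanger that also moves kynurenine, differed by -1.30, with -1.51 and -1.09 for its probes. SLC43A1, another large neutral amino acid carrier, was dim and differed by 1.45 with an error of 0.36. SLC7A11, the cystine carrier, was measured in the infant culture alone, at least 1.95-fold lower in the pubertal one, and SLC7A8 differed by -0.27.

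Kynurenine and kynurenic acid are known as ligands of the aryl hydrocarbon receptor AHR. Of the genes of that receptor's response measured on both arrays, 33.3% passed 2-fold, beside 13.6% of all genes. Of 12 genes, 9 were measured on both arrays, 2 at least 2-fold higher, 1 at least 2-fold lower, with a median of -0.01. CYP1A1, a classical target, read 235.4 in the pubertal culture and 51.2 in the infant culture, a difference of 2.11 with an error of 0.24. The receptor's repressor AHRR, itself a target, read 82.1 and 23.3 in the same order of arrays, a difference of 1.73 with an error of 0.32. AHRR had 2 probes, of which 1 was measured on both arrays. Its infant log2 level of -4.04 lay close to the faintest called well above background there, -4.36. With normexp background correction, 1 gene of the list was at least 2-fold higher, and with median scaling 2 were at least 2-fold lower. CYP1B1, also a target, read 783.1 in the pubertal culture and 3426 in the infant culture, a difference of -2.22 with an error of 0.20. TIPARP (-0.01), another target, differed by less than 2-fold. AHR itself, looked up after its value was seen, stayed at background in both cultures.

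KYNU and AADAT need vitamin B6 as a cofactor, and none of the genes that supply it passed 2-fold. Of 4 genes, 3 were measured on both arrays, with a median of -0.14. Over all genes 13.6% passed 2-fold. PDXK, the kinase that activates the vitamin, differed by -0.14 with probes at -0.72 and 0.43, and the phosphatase PDXP by 0.33. ALPL was on the infant array alone, with a bound of 1.06-fold.

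Inflammatory and interferon signals are known to induce the pathway in immune cells. Of 20 genes, 13 were measured on both arrays, with 2 at least 2-fold lower, none at least 2-fold higher and a median of -0.41. The share past 2-fold was 15.4%, beside 13.6% of all genes. Of the 13, 11 were negative, beside 54.2% of all genes. The cytokine IL6 differed by -2.48, while JAK1, a kinase of cytokine and interferon receptors, differed by -0.16. The interferon-responsive genes IRF8 and GBP1 were measured in the pubertal culture alone, at least 2.56-fold and 1.63-fold higher. IFNG, IL1B and TNF, looked up after their values were seen, were well above background on neither array.

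**Figure D3:**
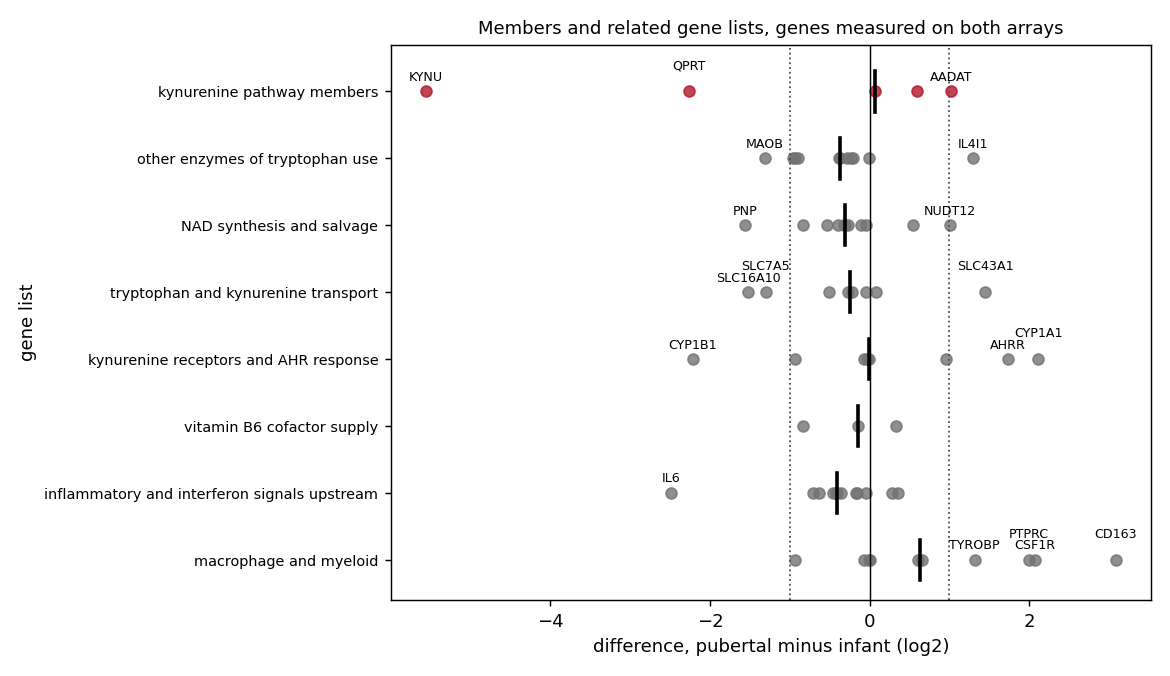
Difference, pubertal minus infant on the log2 scale, of each gene measured on both arrays, by gene list, with the list's median as a bar and 2-fold as dotted lines. Genes past 2-fold are named, and genes whose single values are not reported enter the medians but are not drawn. KYNU at -5.56 lies below every gene of the lists shown, and the macrophage markers past 2-fold all lie on the higher side.

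KYNU and KMO are known from macrophages. Of 18 macrophage markers, 10 were measured on both arrays, 4 of them at least 2-fold higher in the pubertal culture and none at least 2-fold lower. The share past 2-fold was 40.0%, beside 13.6% of all genes, with 7.32% higher and 6.32% lower. CD163 read 1279 in the pubertal culture and 142 in the infant culture, a difference of 3.09, while ITGAX differed by 0.65 and FCER1G by 0.00. Negative differences were found for 3 markers, CD68 (-0.94), ITGAM (-0.08) and CD86 (-0.01). With median scaling and with quantile normalization 1 marker of the list was at least 2-fold lower. MRC1, AIF1 and C1QB were on the pubertal array alone, LAPTM5 on the infant array alone, and LYZ, C1QA, C1QC and SPI1 on neither. The summed level over each marker's brightest probe, in multiples of the array's 75th percentile, was 11.2 in the pubertal culture and 5.11 in the infant culture. The part of macrophages in the member differences was not tested.

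Leydig cell markers differed among themselves. All but LHCGR of 8 markers were measured on both arrays, 3 of them at least 2-fold lower in the pubertal culture and none at least 2-fold higher. The share past 2-fold was 42.9%, beside 13.6% of all genes, while 4 were positive and the median was 0.17. On the spike-in scale 2 were at least 2-fold lower and 4 at least 2-fold higher. The summed level was 49.3 in the pubertal culture and 153.3 in the infant culture. STAR differed by -4.24, CYP17A1 by -4.21 and CYP11A1 by -1.37, but HSD3B2, the brightest of the list on the pubertal array, by 0.25. STAR was the brightest on the infant array, at a log2 level of 6.65, and weighs most in the infant sum. The part of Leydig cells in the KYNU and QPRT differences was not tested.

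Of the markers measured on both arrays, 85.7% passed 2-fold for germ cells, 41.2% for Sertoli cells and 71.4% for peritubular cells. Over all genes the share was 13.6%, with 7.32% higher and 6.32% lower. Of 15 germ cell markers, 7 were measured on both arrays, 5 of them at least 2-fold higher and 1 lower, and 6 more on the pubertal array alone. The 7 had a median of 3.97, with 6 positive and 1 negative. The summed level of the list was 42.6 in the pubertal culture and 46.3 in the infant culture. The negative one, the bright UCHL1, differed by -1.52 and made up most of the infant sum at a log2 level of 5.10. Of the 17 measured Sertoli cell markers, 5 passed 2-fold upward and 2 downward, with 13 positive and a median of 0.42. Among them TF differed by 3.32, AMH by 3.28 and KRT18 by -1.24, and the summed level was 959.1 in the pubertal culture and 1138 in the infant culture. KRT18 weighs heavily in these sums, with a mean signal over 4 probes of 64281 in the pubertal culture and 170531 in the infant culture. The latter was the highest of the list on that array. Of 7 peritubular markers, all measured, 5 were at least 2-fold higher, and 3 with median scaling. Their summed level was 238.7 in the pubertal culture and 119.3 in the infant culture. The part of any of these cell types in the AADAT difference was not tested.

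Scaling decides the sign of the small differences but not that of KYNU or QPRT. Over 12 other ways of processing, KYNU lay between -6.14 and -4.56 and QPRT between -2.42 and -1.25, always past 2-fold. On the spike-in scale AADAT stood at 2.03, HAAO at 1.59 and KMO at 1.07, each past 2-fold, and KYNU and QPRT stayed lower at -4.56 and -1.25. KMO turned negative with median scaling (-0.10) and with quantile normalization (-0.10), both within its error of 0.28.

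**Figure D4:**
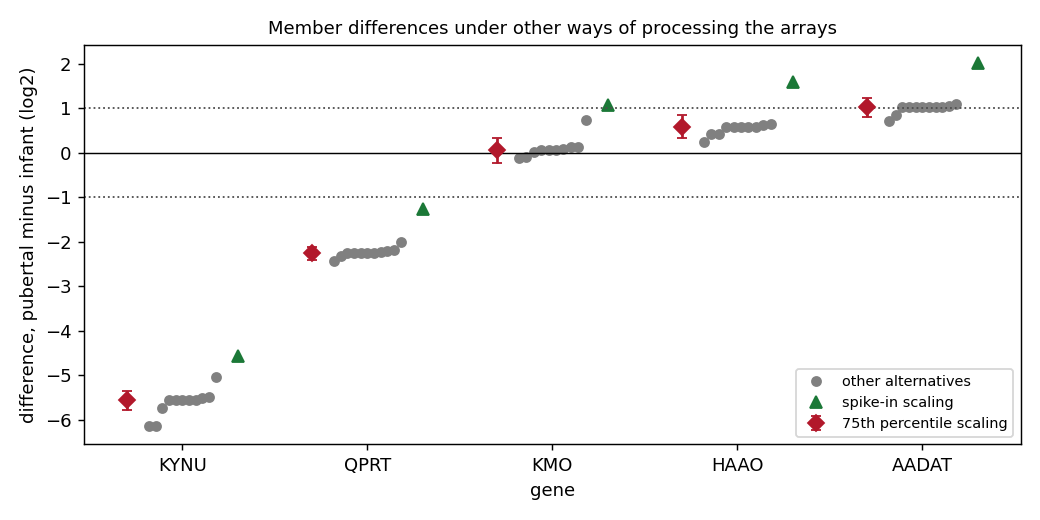
Difference, pubertal minus infant on the log2 scale, of the 5 measured members with scaling on the 75th percentile (diamonds, bars are the software's error), on spike-in RNA (triangles) and under the other alternatives (grey points), with 2-fold as dotted lines. KYNU and QPRT stay below -1 throughout, while AADAT straddles 1.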

How the data were processed

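The deposited values are spot intensity values that the authors obtained with Agilent Feature Extraction 10.5.1.1. The headers record background subtraction and detrending within each array, a surrogate for the lowest values and no scaling across arrays. The deposited flags for background, saturation and outliers, each 0 or 1, were used as they are. The headers give both arrays the same slide and the same scan.

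Gene spots flagged as outliers were dropped, 96 for the pubertal and 91 for the infant culture, and none was a member spot. From each log2 signal the array's 75th percentile was subtracted (406.7 intensity units pubertal, 382.4 infant). A probe counted as measured where at least 50% of its spots were well above background, and gene values are means over probes measured on both arrays. A gene measured on 1 array has a lower bound against the dim array's faintest measured level (-4.29 pubertal, -4.36 infant) or its own reading, whichever is higher. Accession-only names were left out. Single values of some listed genes are not reported here. Replicate spots of 27 probes had a median SD of 0.12 in the pubertal and 0.10 in the infant culture, which leaves out animal and culture. The number of arrays limits the precision, and no test was made.

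The members and lists were chosen with earlier results of these data known. Named genes are all members, per list up to 5 past 2-fold or measured on 1 array and the 2 brightest, up to 3 bright cell type markers per list, and the KYNU neighbours in rank. Cell type markers named beyond that were chosen after their values were seen. Alternatives changed background correction, scaling, the filter on dim probes, the way probes were combined and the fold threshold, or left out disturbed areas, where neighbouring spots deviated together. Normexp used limma 3.58.1 in R 4.3.3, and the rest Python 3.11.15 and statsmodels 0.14.6. The gene function was tested on simulated data.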

Additional observations from a re-analysis of the deposited data

How the results depend on the processing

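No paired analysis was possible because each group had 1 array. The number of members at least 2-fold lower was 2 under each alternative with a 2-fold threshold and also at 1.5- and 4-fold. The number at least 2-fold higher, 1 in the main setting, was 0 with normexp correction, median scaling or a 4-fold threshold, 2 at 1.5-fold, and 3 with spike-in scaling, no filter on dim probes, the weaker detection flag or the median of all probes. The member median moved to 1.07 with spike-in scaling, 0.66 with no filter, 0.59 with the weaker flag, 0.36 with the median of all probes and -2.26 among probes above the median signal. The last change came with the loss of KMO and HAAO, which are dimmer. Without a filter TDO2 stood at 2.11, AFMID at 1.29 and ACMSD at -0.04, with AFMID and ACMSD at background on both arrays.

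Of all genes, 900 were lower and 1042 higher at 2-fold. These numbers were 568 and 553 with normexp, 120 and 6563 with spike-in scaling, 1485 and 2081 with no filter, 1363 and 1710 with the weaker flag, 1484 and 2056 with the median of all probes, 2392 and 2142 at 1.5-fold, and 122 and 238 at 4-fold. With median scaling they were 1305 and 785. Scaling moved the median of all genes by 1.00 (spike-in) and -0.16 (median). No member past 2-fold changed sign. Of 560 values for the lists, 121 moved beyond the yardsticks, and the causes were not tested. Leaving out disturbed areas, 527 spots, changed no member value. Signal over background limits TDO2, AFMID, ACMSD, KMO and HAAO.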

Other observations

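Markers of further cell types are given here as values. Over all genes measured on both arrays, 13.6% passed 2-fold. Of 10 lymphocyte markers, 5 were measured on both arrays and none was past 2-fold, with a median of 0.22. NKG7 was not well above background in the pubertal culture at 10.6 and read 99.9 in the infant culture, at least 5.10-fold lower. CD2 was measured in the pubertal culture alone, with a bound of 1.34-fold. Of 8 endothelial markers, 4 were measured on both arrays, 1 of them at least 2-fold higher, with a summed level of 2.31 in the pubertal culture and 1.02 in the infant culture. Of 7 fibroblast markers, 6 were measured on both arrays, with 2 at least 2-fold higher, 1 lower and a median of -0.15.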
